A study of Camelus dromedarius with 10 samples.

Results

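SLC7A11 and 7 genes of the antioxidant response were followed in the rostral supraoptic nucleus (SON) of dromedary camels. The set held the cystine importer SLC7A11, the activators NFE2L1, NFE2L2 and NFE2L3, the repressors BACH1 and BACH2, and the haem oxygenases HMOX1 and HMOX2. These are 8 of the 22444 gene IDs counted. Members were found by symbol, through the tables in which the study pairs IDs with names, and all 8 had an ID. One of those tables lists genes in the order of the contrast between water deprived and control camels, and only its first 1819 rows were used here, so a gene named from it alone was selected by its place in that order. The set was put together with results of this comparison in view. SLC7A11 (ENSCDRG00005001594) was named solely from those rows, so its difference between groups is given as a description, with no test. NFE2L2 (ENSCDRG00005002588) stood in those rows and in the tables of gene classes, and the other 6 symbols came from the gene classes alone.

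The data were ribosome-depleted RNAseq libraries from 10 male camels aged 4 to 5 years, a separate animal for each library. In the control group, 5 camels drank water ad libitum, and in the water deprivation (WD) group, 5 camels had food but no water for 20 days. Each library came from punches of the SON of one side of the brain, so neurones, glia and vessels were sequenced together. In such bulk tissue, fewer cells of a type and less RNA per cell cannot be told apart.

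The SON holds the magnocellular neurones that make vasopressin and oxytocin and raise their secretory output when the body loses water. SLC7A11 is the transport subunit of the exchanger xCT, which brings in cystine and releases glutamate, and the imported cystine feeds the synthesis of glutathione. NFE2L2, known as NRF2, pairs with small MAF proteins at antioxidant response elements and drives transcription of SLC7A11, HMOX1 and many detoxifying enzymes, while BACH1 competes for the same elements until haem displaces it. NFE2L2 is held mainly by turnover of its protein, which RNA counts do not measure. SLC7A11 is also a target of ATF4, the factor that answers a shortage of amino acids.

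Total counts ran from 1665098 to 7518432 per control library and from 4227685 to 8126641 per WD library. The 5 gene IDs that each took over 1% of a library held between 27.7% and 76.1% of the counts. Outside them, control 13 kept 397495 counts and WD 6 kept 1106575, the lowest depths of their groups. A single read pair was worth 1.20 CPM (counts scaled to a common library size) in control 13, 0.475 in WD 6 and at most 0.237 in the other libraries. Levels below are CPM after TMM scaling, which sets libraries on a common scale by their shared genes. CPM are not divided by transcript length, so levels were compared between libraries and not between genes.

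Of the 8 members, SLC7A11 stood apart by group and the other 7 overlapped between control and WD camels. By edgeR's quasi-likelihood test, 0 of those 7 passed an adjusted p of 0.05, against 0.499% of all 14432 genes tested, and 1 of the 7 (NFE2L2) had an unadjusted p under 0.05. By DESeq2, 0 of the 7 passed, against 1.27% of the genes it tested. Among all genes tested, 1.34% had every WD library above every control library and 2.62% did not overlap in either direction. SLC7A11 was the member with WD above control, and since this contrast named it, nothing is read from that.

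SLC7A11 was 8.97 CPM in control 2, 18.7 in control 3, 13.7 in control 4, 13.6 in control 5 and 8.37 in control 13. In WD camels it was 24.7 CPM in WD 6, 45.0 in WD 7, 20.6 in WD 8, 41.5 in WD 9 and 36.9 in WD 15. The groups did not overlap, although the gap between control 3 and WD 8 was small beside the spread within the WD group. The mean was 12.7 ± 4.19 CPM in controls and 33.7 ± 10.6 CPM in WD camels (SD, n = 5 each). The fitted log2 fold change of WD over control was 1.37 (SE 0.26). The counts behind these levels ran from 42 to 119 in the 4 deeper control libraries and from 52 to 480 in WD libraries. Control 13 gave 7 counts, which by counting error alone allow 3.37 to 17.2 CPM (exact Poisson 95% interval). Left-out fits gave 1.31 without control 13 and 1.375 without both control 13 and WD 6. It stayed between 1.231 (without control 2) and 1.52 (without control 3) with any one library left out.

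**Figure D1:**
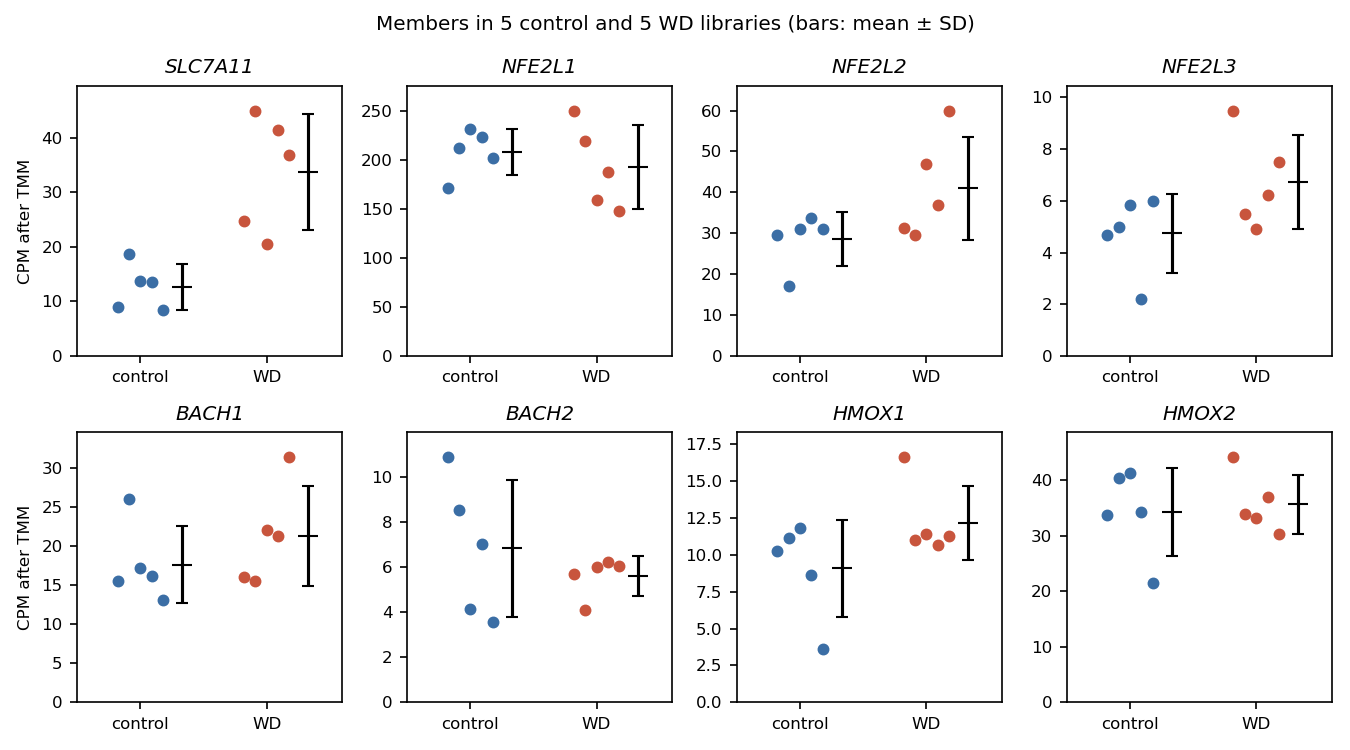
Levels of the 8 genes in CPM after TMM scaling (vertical axes, each from 0), with control libraries in blue and WD libraries in red, 1 point per camel; points run left to right in the order 2, 3, 4, 5, 13 and 6, 7, 8, 9, 15, and black bars give the mean ± SD of 5. For SLC7A11 the lowest WD library (20.6 CPM) lay above the highest control (18.7 CPM), and for the other 7 genes the groups overlapped.

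NFE2L2, the main activator of the response, had a higher mean in WD camels but did not pass the test. It was 29.7, 17.0, 31.1, 33.8 and 31.1 CPM in controls 2, 3, 4, 5 and 13. In WD camels it was 31.3, 29.6, 47.0, 36.9 and 60.0 CPM in WD 6, 7, 8, 9 and 15. WD 6 and WD 7 lay within the range of the controls, and WD 8 and WD 15 were the highest. The means were 28.5 ± 6.61 and 41.0 ± 12.6 CPM (SD, n = 5 each). NFE2L2 had a log2 fold change of 0.53 (SE 0.23, 95% interval 0.04 to 1.02), with an adjusted p of 0.492 and an unadjusted p of 0.0356 by edgeR. Unadjusted p-values under 0.05 were found for 9.31% of all genes, and for 4.91% with a higher level in WD. Without WD 15 the log2 fold change of NFE2L2 was 0.36, and without control 3 it was 0.37. In the RefSeq annotation of a different camel assembly, NFE2L2 overlaps HNRNPA3 and a tRNA gene, and the strand setting of the counting was not given in the sources used here, so reads of such neighbours could enter its count.

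NFE2L1 (ENSCDRG00005018357), a membrane-anchored relative known for control of proteasome genes, overlapped between the groups. It was 172, 212, 231, 223 and 202 CPM in controls 2, 3, 4, 5 and 13, and 251, 219, 159, 188 and 148 CPM in WD 6, 7, 8, 9 and 15. WD camels held both the highest and the lowest value. Its log2 fold change was -0.11 (95% interval -0.49 to 0.26, adjusted p = 0.907 by edgeR). With 1 library left out it ran from -0.22 (without WD 6) to -0.03 (without WD 15), and was -0.20 without control 2 and -0.18 without WD 7. With 11578 counts in all, NFE2L1 was the most deeply counted member, and its interval leaves out a change of 0.5 on the log2 scale in either direction.

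NFE2L3 (ENSCDRG00005000723), the third member of the family, was counted thinly, with 317 counts over the 10 libraries. It was 4.70, 4.97, 5.85, 2.20 and 5.98 CPM in controls 2, 3, 4, 5 and 13, and 9.49, 5.48, 4.92, 6.22 and 7.50 CPM in WD 6, 7, 8, 9 and 15. WD 7 and WD 8 fell among the controls. Its log2 fold change was 0.52 (SE 0.34, 95% interval -0.20 to 1.24, adjusted p = 0.694 by edgeR), and it was 0.31 without control 5. A change as large as that of NFE2L2, or none, was not distinguishable at this depth.

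The repressor BACH1 (ENSCDRG00005001237) also overlapped between groups. It was 15.6, 26.0, 17.2, 16.2 and 13.2 CPM in controls 2, 3, 4, 5 and 13, and 16.1, 15.6, 22.1, 21.3 and 31.5 CPM in WD 6, 7, 8, 9 and 15. Control 3 was above 4 of the 5 WD libraries, and WD 15 was the highest of all. BACH1 had a log2 fold change of 0.25 (SE 0.24, 95% interval -0.25 to 0.75, adjusted p = 0.809 by edgeR), and it was 0.08 without WD 15 and 0.41 without control 3. In the RefSeq annotation of the other assembly, BACH1 overlaps a long non-coding RNA gene.

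BACH2 (ENSCDRG00005017369), the relative of BACH1 best known from B lymphocytes, had 358 counts in all. It was 10.9, 8.52, 4.13, 7.03 and 3.59 CPM in controls 2, 3, 4, 5 and 13, and 5.69, 4.08, 5.99, 6.22 and 6.04 CPM in WD 6, 7, 8, 9 and 15. All WD values lay inside the control range. Its log2 fold change was -0.34 (SE 0.32, 95% interval -1.02 to 0.34, adjusted p = 0.812 by edgeR), and it was -0.14 without control 2 and -0.53 without control 4.

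HMOX1 (ENSCDRG00005020203), the inducible haem oxygenase and a standard target of NFE2L2 and BACH1, did not pass the test. It was 10.2, 11.1, 11.8, 8.64 and 3.59 CPM in controls 2, 3, 4, 5 and 13, and 16.6, 10.97, 11.4, 10.6 and 11.3 CPM in WD 6, 7, 8, 9 and 15. The other 4 control libraries and the other 4 WD libraries lay between 8.64 and 11.8 CPM, and the lowest and the highest values came from the shallowest library of each group. Those were 3 counts in control 13 and 35 in WD 6. The log2 fold change was 0.30 (SE 0.25, 95% interval -0.24 to 0.83, adjusted p = 0.785 by edgeR). It was 0.18 without control 13, 0.17 without WD 6 and 0.06 without both.

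HMOX2 (ENSCDRG00005008500), the constitutive haem oxygenase, had a log2 fold change of 0.01 (SE 0.19, 95% interval -0.38 to 0.41, adjusted p = 0.989 by edgeR). It was 33.7, 40.5, 41.2, 34.3 and 21.5 CPM in controls 2, 3, 4, 5 and 13, and 44.1, 33.9, 33.2, 36.9 and 30.2 CPM in WD 6, 7, 8, 9 and 15. As for HMOX1, control 13 was the lowest and WD 6 the highest.

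Ratios of counts between 2 genes of the same library do not depend on how libraries are scaled, and they gave a second view of the balance between members. The count of NFE2L2 over that of BACH1 was 1.76 ± 0.654 in controls and 1.92 ± 0.141 in WD camels (SD, n = 5 each), with control 3 alone at 0.655 and every other library between 1.73 and 2.36. The count of NFE2L2 over that of NFE2L1 was 0.139 ± 0.0352 in controls and 0.232 ± 0.119 in WD camels, with WD 8 (0.295) and WD 15 (0.406) the highest and WD 6 (0.125) and WD 7 (0.135) within the control range. The count of HMOX1 over that of HMOX2 was 0.257 ± 0.0538 in controls and 0.341 ± 0.0366 in WD camels, and WD 9 (0.288) lay below control 2 (0.304). The count of SLC7A11 over that of SLC3A2, the chain that carries SLC7A11 to the membrane, was 0.210 ± 0.0752 in controls and 0.381 ± 0.145 in WD camels. Control 3 (0.332) stood above WD 6 (0.256) and WD 8 (0.238) in that ratio. These ratios were chosen after the values were seen and were not tested.

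Around the 8 members, 75 genes of the surrounding pathways were listed. Symbols were paired with an ID for 42 of them and 36 were counted deeply enough to test. In the edgeR fit 2 rose and 0 fell, with SAT1 and SLC38A2 the 2 that rose, against the 0.27% of all genes that were upregulated and the 0.229% that were downregulated. Both symbols came only from the rows used of the table sorted by this contrast, as did those of 9 others of the 36 (SLC3A2, CHAC1, GGT7, TKT, ME1, TFRC, SLC7A1, SLC7A2 and SLC7A8), so these 11 genes were in part selected for a difference. Their values and adjusted p-values are given as descriptions. Of the 25 tested genes named through gene classes, 0 passed the test, 16 had a log2 fold change above 0 and the median was 0.17, beside 51.9% above 0 and a median of 0.02 over all genes. Of those 25, 6 had an unadjusted p under 0.05, with 5 of them higher and 1 lower in WD, beside 9.31% of all genes in either direction and 4.91% higher. ATF4 was the 1 of the 25 called by DESeq2, which called 1.27% of the genes it tested. It was also the 1 called in the edgeR fits with RNA integrity (0.721% of all genes called) or depth group (1.55%) as a covariate.

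**Figure D2:**
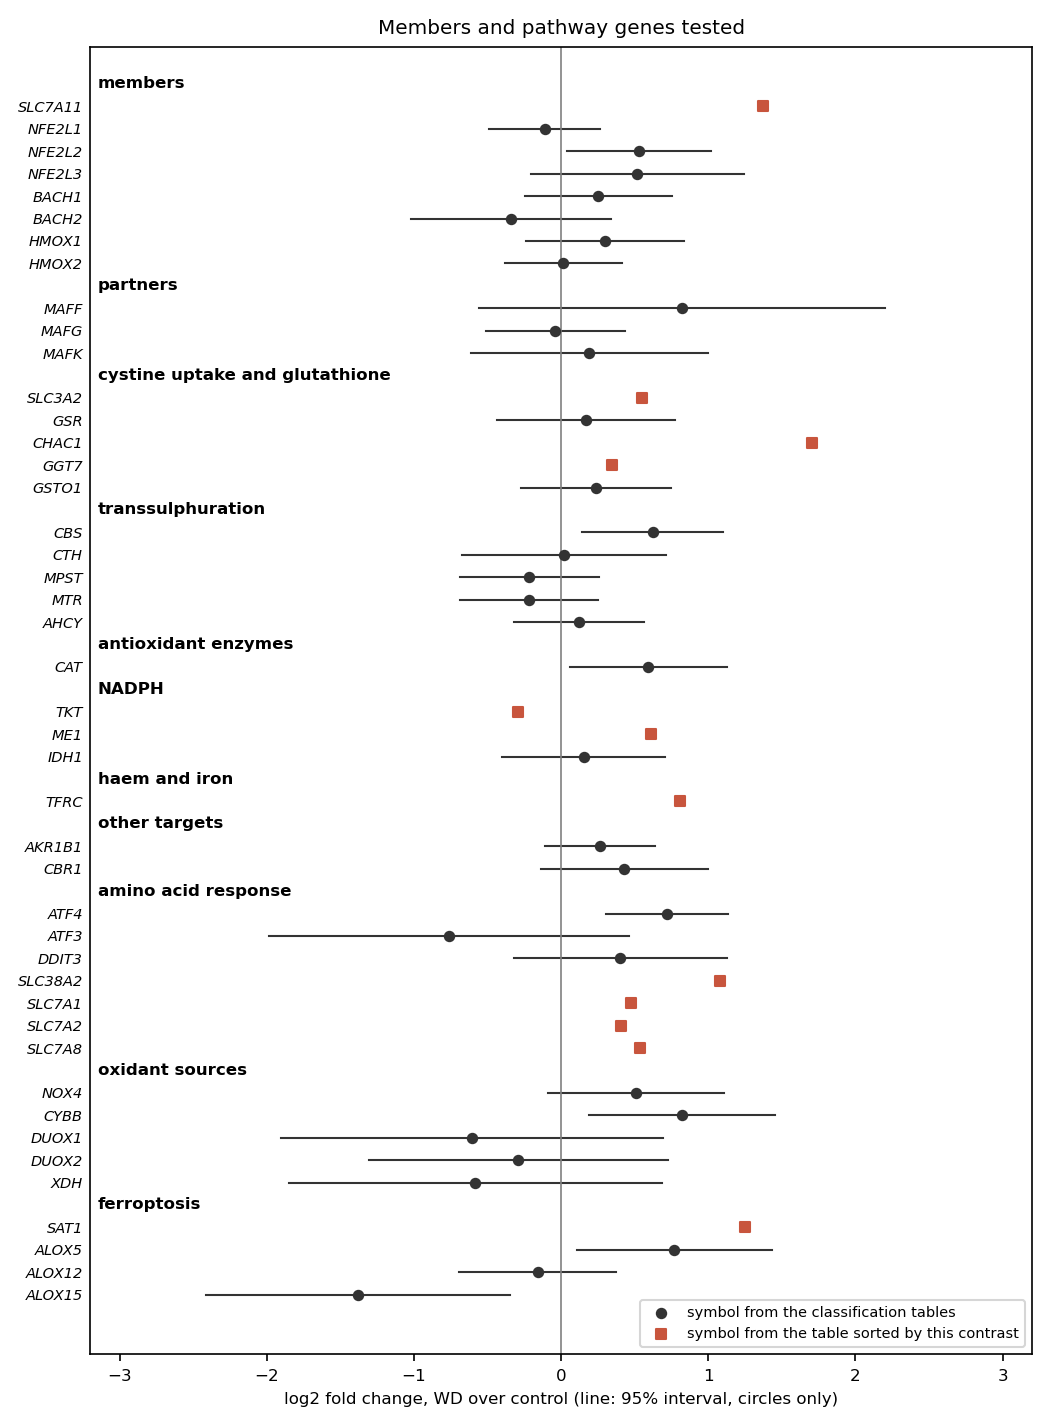
Log2 fold change of WD over control (horizontal axis) for the 8 members and the 36 tested pathway genes, grouped by list; black circles with lines for the 95% interval are genes named through gene classes, and red squares, drawn with no interval, are genes named only in the table sorted by this contrast. SLC7A11 (1.37) is shown as a description with no test, and SAT1 (1.25) and SLC38A2 (1.08), the 2 pathway genes that passed the threshold, are also red squares.

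Among the partners of the NFE2L and BACH proteins, 3 small MAF genes were tested and 0 of them passed. The log2 fold change was -0.04 for MAFG (adjusted p = 0.975 by edgeR), 0.19 for MAFK (adjusted p = 0.932) and 0.82 for MAFF (adjusted p = 0.762). MAFF was thin, with 106 counts in all, and its 95% interval ran from -0.56 to 2.20. NFE2, the founding member of the NFE2L family, was too low to test, and KEAP1 was not paired with an ID.

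Of the genes of cystine uptake and glutathione, 5 were tested and 0 passed by edgeR. SLC3A2 was 68.3, 56.3, 65.1, 66.0 and 49.0 CPM in controls 2, 3, 4, 5 and 13, and 96.3, 76.7, 86.3, 91.3 and 100 CPM in WD 6, 7, 8, 9 and 15. The groups of SLC3A2 did not overlap, but the adjusted p was 0.195 by edgeR (log2 fold change 0.55) and 0.0184 by DESeq2. GSR, which recycles oxidised glutathione, had a log2 fold change of 0.17 (adjusted p = 0.919 by edgeR), GGT7, of the gamma-glutamyltransferase family, 0.35 (adjusted p = 0.577), and GSTO1, a glutathione transferase, 0.24 (adjusted p = 0.828). CHAC1, which breaks down glutathione and is a target of ATF4, is named here after its values were seen. It was 0.854 to 5.44 CPM in controls and 3.38 to 15.7 CPM in WD camels, with WD 8 inside the control range (log2 fold change 1.71, adjusted p = 0.136 by edgeR, 0.0317 with RNA integrity as a covariate, and 0.0386 by DESeq2).

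The amino acid response includes ATF4 and amino acid transporters, and 2 of its 3 tested genes named through gene classes had a log2 fold change above 0, beside 51.9% of all genes. ATF4 was 48.7, 49.2, 66.7, 76.1 and 53.8 CPM in controls 2, 3, 4, 5 and 13, and 94.9, 121, 74.5, 122 and 75.0 CPM in WD 6, 7, 8, 9 and 15. WD 8 and WD 15 lay just below control 5. The log2 fold change of ATF4 was 0.72 (95% interval 0.30 to 1.14), with an adjusted p of 0.172 by edgeR and 0.0445 by DESeq2. By edgeR the adjusted p of ATF4 was 0.0106 with RNA integrity and 0.0424 with depth group as a covariate, and 0.120 to 0.446 with 1 library left out. SLC38A2, a carrier of small neutral amino acids that cells raise in hypertonic media and in amino acid shortage, was 80.4 to 151 CPM in controls and 149 to 311 CPM in WD camels, with WD 6 just below control 4. Its log2 fold change was 1.08 (adjusted p = 0.0337 by edgeR), in a gene named only from the rows sorted by this contrast. With 1 library left out this value stayed between 0.95 and 1.21, but SLC38A2 passed only without control 4 or WD 6 and missed the threshold in the other 8 of 10 fits (adjusted p up to 0.178). The other transporters did not pass by edgeR, with log2 fold changes of 0.48 for SLC7A1 (adjusted p = 0.472), 0.41 for SLC7A2 (adjusted p = 0.531) and 0.53 for SLC7A8 (adjusted p = 0.474). The remaining tested genes of the list, the stress factors DDIT3 at 0.40 (adjusted p = 0.785 by edgeR) and ATF3 at -0.76 (adjusted p = 0.743), are named after their values were seen. TRIB3, with 76 counts in all, was too low to test, and ATF5, ASNS and SLC7A5 were not paired with an ID.

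SAT1, which acetylates spermidine and spermine and is also linked to lipid peroxidation, was 51.0, 63.9, 96.4, 76.6 and 49.0 CPM in controls 2, 3, 4, 5 and 13. It was 116, 166, 159, 186 and 185 CPM in WD 6, 7, 8, 9 and 15, above every control (log2 fold change 1.25, adjusted p = 0.00633 by edgeR). SAT1 too was named only from the rows sorted by this contrast. With 1 library left out its log2 fold change ran from 1.14 to 1.40. Of the other 3 lipid oxidation genes tested, ALOX5 had a log2 fold change of 0.77 (adjusted p = 0.454 by edgeR), ALOX12 -0.16 (adjusted p = 0.909) and ALOX15 -1.38 (adjusted p = 0.343). ALOX15 had 206 counts in all, with the highest level in control 13 from 11 counts.

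The remaining lists held 0 genes that passed the test by edgeR. Only 1 of 9 listed antioxidant enzymes and 1 of 7 listed haem and iron genes were paired with an ID. The rest of both lists, NQO1, TXNRD1 and SRXN1 among them, was not read. The list of transsulphuration, which makes cysteine from methionine, also held linked steps. There CBS was 0.62 on the log2 scale of WD over control (adjusted p = 0.367 by edgeR), while MTR was -0.22, AHCY 0.12 and MPST -0.22. CTH, named after its values were seen, was 0.02 (adjusted p = 0.990 by edgeR). CAT, the peroxide-degrading catalase, was 0.59 (adjusted p = 0.474 by edgeR). Among genes that supply NADPH, ME1 was 0.61 (adjusted p = 0.232 by edgeR), IDH1 0.15 and TKT -0.29. TFRC, the receptor that takes up iron-laden transferrin, was 0.80 (adjusted p = 0.195 by edgeR), with WD 6 at 29.9 CPM inside the control range of 26.3 to 47.8 CPM. Without WD 6 it was 0.96 and passed (adjusted p = 0.0142 by edgeR). The reductases AKR1B1, which makes the osmolyte sorbitol, and CBR1 were 0.27 and 0.43. Among makers of reactive oxygen, CYBB, the phagocyte oxidase subunit, was 0.82 (adjusted p = 0.366 by edgeR), NOX4 0.51, DUOX1 -0.61 and DUOX2 -0.29, with 2 of the 5 tested above 0. CYBB lay between 15.2 and 16.3 CPM in WD 6, WD 7 and WD 9 but at 28.9 in WD 8 and 47.7 in WD 15, beside 12.4 to 16.3 CPM in controls.

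Markers of other cells in the punches were read beside these results. All 8 markers of microglia and macrophages had a log2 fold change above 0, beside 51.9% of all genes, with a median of 0.90. By edgeR 0 of them passed and 6 had an unadjusted p under 0.05, beside 9.31% of all genes, with CSF1R at 0.62, ITGAM at 0.90, IRF8 at 0.98 and ITGB2 at 0.96 on the log2 scale. The libraries of CTSS, named after its values were seen, did not overlap between groups (adjusted p = 0.0857 by edgeR). The summed level of the 8 was 233 to 373 CPM in controls and 414, 296, 468, 301 and 902 CPM in WD 6, 7, 8, 9 and 15.

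WD 15 and WD 8, which had the highest microglial sums, were also the highest libraries for NFE2L2 and the lowest for NFE2L1. WD 7 and WD 9 had the lowest microglial sums of the WD group and the highest SLC7A11, and WD 8 had the lowest SLC7A11 of the group, although the WD group had the higher median of both measures. The part of the microglial markers in the levels of SLC7A11, NFE2L2, NFE2L1, BACH1 and CYBB was not tested.

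**Figure D3:**
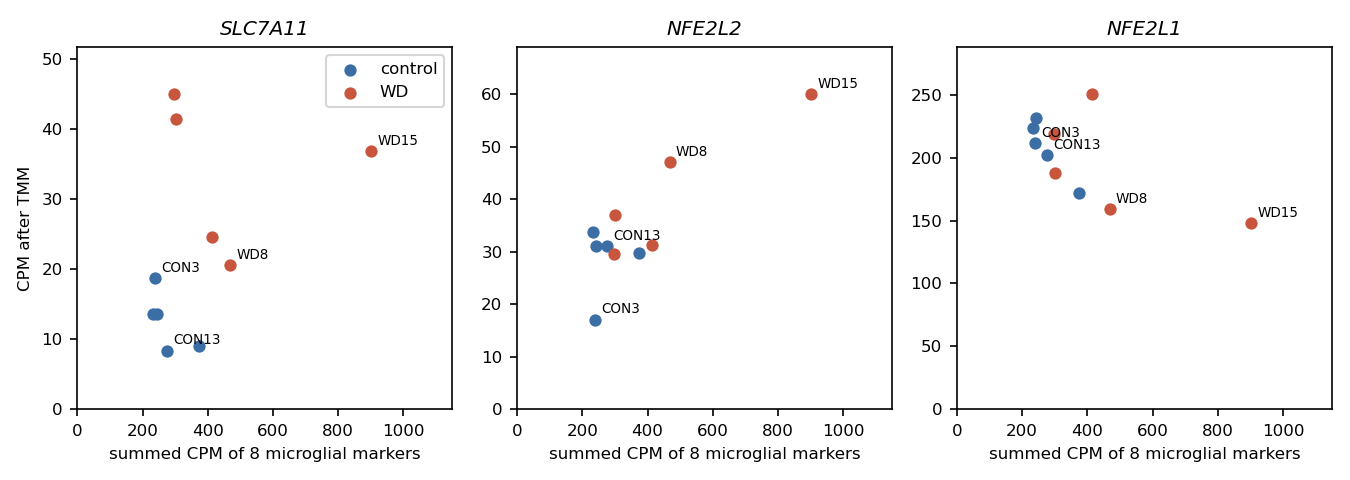
Level of SLC7A11, NFE2L2 and NFE2L1 (vertical axes, CPM after TMM scaling, from 0) against the summed CPM of 8 microglial markers (horizontal axis), 1 point per camel, control in blue and WD in red. WD 15, at a sum of 902 CPM, had the highest NFE2L2 (60.0 CPM), the lowest NFE2L1 (148 CPM) and 36.9 CPM of SLC7A11. WD 7 and WD 9, at about 300 CPM, had the highest SLC7A11.

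Of 7 astrocyte markers listed, the 2 with a symbol were higher in mean but did not pass by edgeR, with log2 fold changes of 0.55 for ALDH1L1 (adjusted p = 0.39) and 0.50 for GJA1 (adjusted p = 0.502). Their summed level was 70.5 to 90.4 CPM in controls and 83.5 to 148 CPM in WD camels. Both were named only in the table sorted by this contrast. Of 7 oligodendrocyte markers, 1 was above 0 (ERBB3, 0.01) and the median was -0.16, with sums of 125 to 338 CPM in controls and 132 to 261 CPM in WD camels. Of 6 endothelial markers tested, 5 were above 0 with a median of 0.41 and 0 passed, with FLT1 at 0.62, KDR at 0.64, TIE1 at 0.15 and TEK at -0.06. The endothelial sum was 118 to 190 CPM in controls and 142 to 271 CPM in WD camels. Of the markers of magnocellular neurones, OTP (-0.58), SIM1 (-0.04) and ARNT2 (-0.03) were tested and 0 passed, and their sum was 379 to 530 CPM in controls and 391 to 541 CPM in WD camels, so the labelled tissue expressed them in every library. Vasopressin and oxytocin themselves were not paired with an ID here. What the shifts in these cell markers contribute to the members' levels was not tested.

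Genes whose levels ran most like SLC7A11 over the 10 libraries were then sought by Pearson's r of log2 CPM, among the 3359 other genes tested that had a symbol, out of 14431 in all. The points share scaling and depth, and since both groups enter, any gene higher in WD gains in r. The correlation within groups (of deviations from each group's mean) is therefore given too. The closest was TENT5A, a poly(A) polymerase (r = 0.970, within groups 0.889). Next came SDF2L1, a chaperone component of the endoplasmic reticulum (0.944, within groups 0.871), and PCSK1, a protease that cleaves prohormones (0.943, within groups 0.815). PAM, which amidates peptides such as vasopressin and oxytocin (0.923, within groups 0.687), and RABAC1, a protein of vesicle traffic (0.922, within groups 0.744), followed. Over all 14431 genes these held ranks 1, 2, 3, 4 and 6, the gene between PAM and RABAC1 having no symbol. All but PCSK1 were named only in the table sorted by this contrast, so the ranking was drawn from genes chosen in part for a difference between the groups.

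PCSK1 was 161 to 285 CPM in controls and 642 to 1206 CPM in WD camels, and TENT5A was 14.5 to 26.8 CPM in controls and 37.5 to 72.0 CPM in WD camels. In all 5 of these genes WD 7 and WD 9 were the highest libraries, as they were for SLC7A11. The genes were picked for likeness to SLC7A11 in these same libraries, so nothing further is read from that. WD 7 and WD 9 also kept the most counts of the WD group outside the dominant IDs (3996379 and 5872137). Pearson's r of SLC7A11 with log2 depth outside those IDs was 0.503 over all libraries and 0.564 within groups. The part of depth was not tested. By Spearman's rho over the 3359 genes with a symbol, SDF2L1 ranked 1, TENT5A and PCSK1 tied at 6, RABAC1 ranked 10 and PAM 15. By the correlation within groups over the same genes, TENT5A ranked 2, SDF2L1 4, PCSK1 11, RABAC1 25 and PAM 43.

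**Figure D4:**
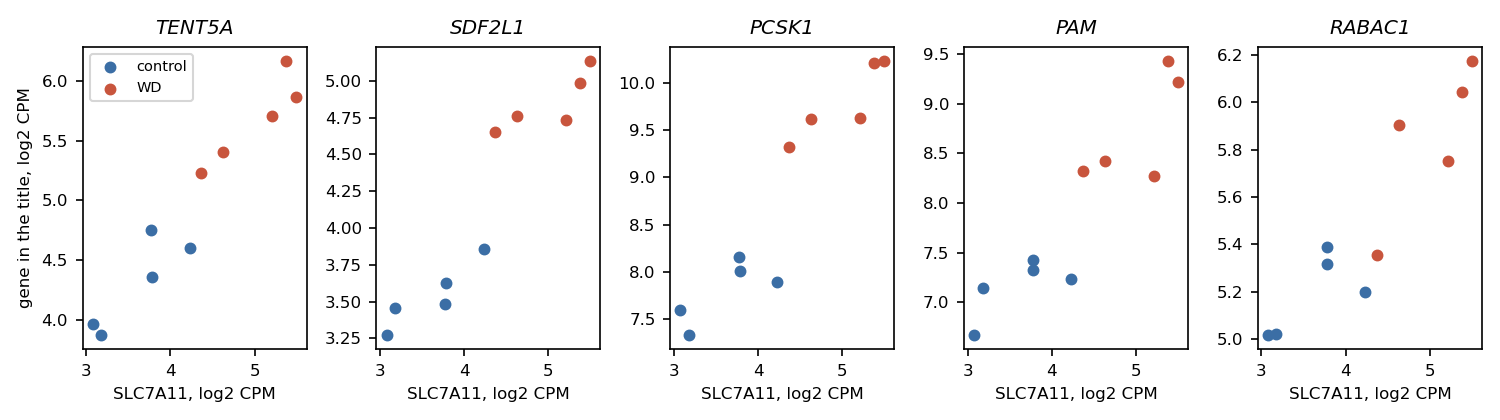
Log2 CPM of the 5 most similar genes with a symbol (vertical axes) against log2 CPM of SLC7A11 (horizontal axes), 1 point per camel, control in blue and WD in red; axes do not start at 0. Pearson's r over the 10 libraries runs from 0.922 (RABAC1) to 0.970 (TENT5A), and WD 7 and WD 9 are the 2 points farthest to the right.

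The other 7 members ranked below these genes, which were picked as the most alike, so their lower place carries no information by itself. Over all libraries, HMOX1 (r = 0.536, rank 1446 of 14431) and BACH1 (0.510, rank 1703) were the closest to SLC7A11, followed by NFE2L3 (0.375), HMOX2 (0.325), NFE2L2 (0.310), NFE2L1 (-0.114) and BACH2 (-0.145). Within groups the order differed, with r of 0.422 for BACH1, 0.378 for HMOX2, 0.287 for HMOX1, 0.240 for NFE2L1, 0.033 for BACH2, -0.164 for NFE2L3 and -0.402 for NFE2L2. The library with the most NFE2L2, WD 15, was the third highest for SLC7A11, and WD 7, with the most SLC7A11, had an NFE2L2 level (29.6 CPM) inside the range of the controls.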

How the data were processed

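Raw counts of read pairs per gene were deposited by the authors, who aligned paired reads to the Camdro2 assembly with STAR and counted them with featureCounts. Annotation release and strand setting are not given in the sources used here. A second deposited table, scaled by DESeq2, was not used. Symbols came from the study's supplementary tables for 4316 of 22444 IDs, 1156 of them only from a table sorted by the WD contrast, of which the first 1819 rows were used. A gene called unpaired is one without a symbol in the rows used here.

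Counts were fitted with edgeR 4.0.16 (TMM, filterByExpr, robust quasi-likelihood F test, R 4.3.3) over 14432 genes and 10 libraries, and p-values were adjusted by Benjamini-Hochberg over all of them (threshold 0.05). DESeq2 1.42.0 was the alternative test. Other alternatives changed the scaling, the filter, robustness, or the libraries kept, or added depth group or the study's RNA integrity number as a covariate. Log2 CPM used a prior count of 0.5. When tested on simulated counts of this comparison (14432 genes), the fit recovered 48% of genes given a log2 change of 1, and 87% where the change was 2. Intervals for single libraries cover counting error only.

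Members and lists were chosen with earlier results of these data known. Named genes were the 8 members, list genes past the threshold, up to 4 more per list by mean CPM, and the 5 genes with a symbol most like SLC7A11. The promoter motif search that had been planned was not run, since promoter sequence was not used here.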

Additional observations from a re-analysis of the deposited data

Results flagged for a closer look

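Single libraries stood far from the rest of their group, by Dixon's criterion for 5 samples (0.71) on log2 CPM, in 5 of the 16 combinations of member and group. The criterion flags about 1 in 20 where values are independent and normally distributed. The share of all genes flagged in these libraries was not computed and the members share libraries, so no excess over chance is read from this. NFE2L2 was 17.0 CPM in control 3, below the other controls, and the same library had the highest SLC7A11 and BACH1 of its group. NFE2L3 was 2.20 CPM in control 5, from 15 counts. BACH2 was 4.08 CPM in WD 7, from 32 counts. HMOX1 was 3.59 CPM in control 13, from 3 counts that allow 0.740 to 10.5 CPM by counting error, and 16.6 CPM in WD 6, from 35 counts that allow 11.6 to 23.1 CPM. Both HMOX1 values came from the shallowest library of their group, and the part of depth in them was not tested. With a prior count of 2 the number was also 5. On linear CPM, a scale chosen after seeing the data, it was 3, and NFE2L3 in control 5 and HMOX1 in control 13 no longer met the criterion.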

How the results depend on the processing

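The direction of SLC7A11, NFE2L1, NFE2L2, NFE2L3, BACH1, BACH2 and HMOX1 was the same in every alternative fitted, and the 7 members other than SLC7A11 passed the threshold in none of them. The log2 fold change of SLC7A11, described with no test, was 1.537 with library totals as the only scaling, which moved the median of all genes to 0.16, and its range with 1 library left out was 1.231 to 1.52. It could not be fitted with at least 10 counts required in every library, nor could NFE2L3, BACH2 and HMOX1. HMOX2 lay near 0 and changed sign with DESeq2 (-0.0037), with totals that leave out the 5 dominant IDs (-0.0077), with depth group as a covariate (-0.0085), without both control 13 and WD 6 (-0.1737), and in 4 of 10 fits with 1 library left out (range -0.0843 to 0.0692). Over all genes 72 were called, but 209 by DESeq2 (105 higher and 104 lower), 10 with library totals only, 224 with depth group as a covariate, and 40 (without control 3, with 42 without control 5) to 102 (without WD 6) with 1 library left out. Of the pathway genes 2 were called, but 5 by DESeq2 (SAT1, SLC38A2, CHAC1, SLC3A2 and ATF4), 0 with library totals only, 4 with RNA integrity as a covariate, and 1 to 3 with 1 library left out. The cause of these shifts was not tested. NFE2L3, BACH2 and HMOX1 had the fewest counts of the members, with 317, 358 and 632 in all. No paired analysis was possible because the groups were made up of different camels.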
